A study of Drosophila sechellia x Drosophila simulans with 8 samples.

Results

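The genes described here were higher in female than in male fat body and less than 1.5-fold higher in female than in male oenocytes. A gene was included when 3 conditions held for its mean TPM (a level scaled for transcript length, with the same sum in every library) over the 2 libraries of each group. Female fat body had at least 5 TPM, the ratio of TPM + 1 in fat body was at least 3 for female over male, and the same ratio in oenocytes was under 1.5. DesatF, Desat1, Desat2, Yp2, Adh, Adhr, HDAC6 and the odorant-binding protein (Obp) genes were set aside by the rule, which removed no gene that met the conditions. Of 14176 genes in the deposited gene table, 18 met these conditions. Of the 52 genes that met the 2 fat body conditions, the other 34 were at 1.5 or more in oenocytes. The sex ratios in both tissues chose the 18 genes, so they are given as descriptions and no test of them supports anything here.

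RNA was sequenced from F1 hybrids of Drosophila sechellia and Drosophila simulans. Oenocytes and fat body were dissected from the dorsal abdomen of 10-day-old adults of both sexes, and the 4 groups (female oenocyte, male oenocyte, female fat body, male fat body) had 2 libraries each. All groups shared the hybrid background, so every autosomal gene, and every X-linked gene in females, could carry 1 allele of each species. The labels give neither the mother's species nor the number of flies per library, and nothing says whether the libraries of a group came from separate flies. The p-values therefore measure the spread between these libraries, which may be technical.

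The fat body of an adult fly is its main organ of storage and secretion, with roles often compared to those of liver and adipose tissue. In females it secretes yolk proteins that the ovary takes up, and its transcription is known to respond to the sex determination pathway, which ends in sex-specific forms of the transcription factor gene doublesex. Oenocytes lie beside the fat body under the cuticle and make the hydrocarbons that coat it, some of which act as sex pheromones. Tissue dissected from one can carry cells of the other.

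All 18 genes carry only GD numbers. The files do not pair these numbers with gene names, so no role can be given to any of them, and their sequences were not analysed here. None of the genes in the lists of yolk, eggshell, germline, immune, sex determination, storage and male reproductive genes that the files name was among the 18. The 18 genes are called by their GD numbers throughout.

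Total estimated counts ranged from 10732070 to 34474092 per library, and reads assigned to genes by alignment from 2275755 to 4642417. The yolk protein gene Yp2 had 88267 and 87132 TPM in female fat body and 36351 and 37413 TPM in female oenocytes, against 54.6 to 84.7 TPM in the 4 male libraries. The other fat body markers in the files, Fbp2 and Lsp1gamma, were at 0 to 0.25 TPM in every library. The desaturase gene DesatF, an oenocyte marker, had 2725 and 2544 TPM in female oenocytes and 30.4 and 25.7 TPM in female fat body. It was lower in males, at 145 and 143 TPM in oenocytes and 4.3 and 4 TPM in fat body. Desat1 had 5214 to 12444 TPM in all 8 libraries and so did not separate the tissues. The eggshell genes Cp16 and dec-1 were at 0 in all 8 libraries, and the 4 germline genes found (nos, bcd, bam and otu) summed to 0.02 to 0.05 TPM in female fat body and at most 0.5 TPM elsewhere. In the muscle list Act88F was at 0 in female fat body, while the 3 genes summed to 23.4 to 29.7 TPM there and 25.6 to 30.1 TPM in male fat body. The gut list of 4 genes summed to 2.69 to 5.44 TPM in female and 15.3 to 16.5 TPM in male fat body. The 9 male reproductive genes were at 0 in female fat body and summed to 4.01 to 5.45 TPM in male fat body, with 6 of them at 0. The files hold no named marker of the spermatheca, and the part of these other cell types in the results was not tested.

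The 18 genes together had 2168 and 2469 TPM in female fat body, 100.3 and 112.8 TPM in male fat body, 106.7 and 93.3 TPM in female oenocytes and 225 and 229 TPM in male oenocytes. In fat body both female libraries lay above both male ones for all 18, where 7.04% of the 4702 genes at 5 TPM or more in female fat body did so. The fold condition itself was met by 1.11% of those genes and by 0.444% of all genes. The rule selected for both properties, so nothing is read from them. In bulk tissue, fewer cells of a type and less RNA per cell cannot be told apart. The 18 genes varied widely in fat body, with a lowest ratio of 3.05, a median of 6.61 and a highest of 617 for female over male on TPM + 1. They also fell into 4 patterns over the other 3 groups, which were set after the values had been seen and are used only to order the description.

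**Figure D1:**
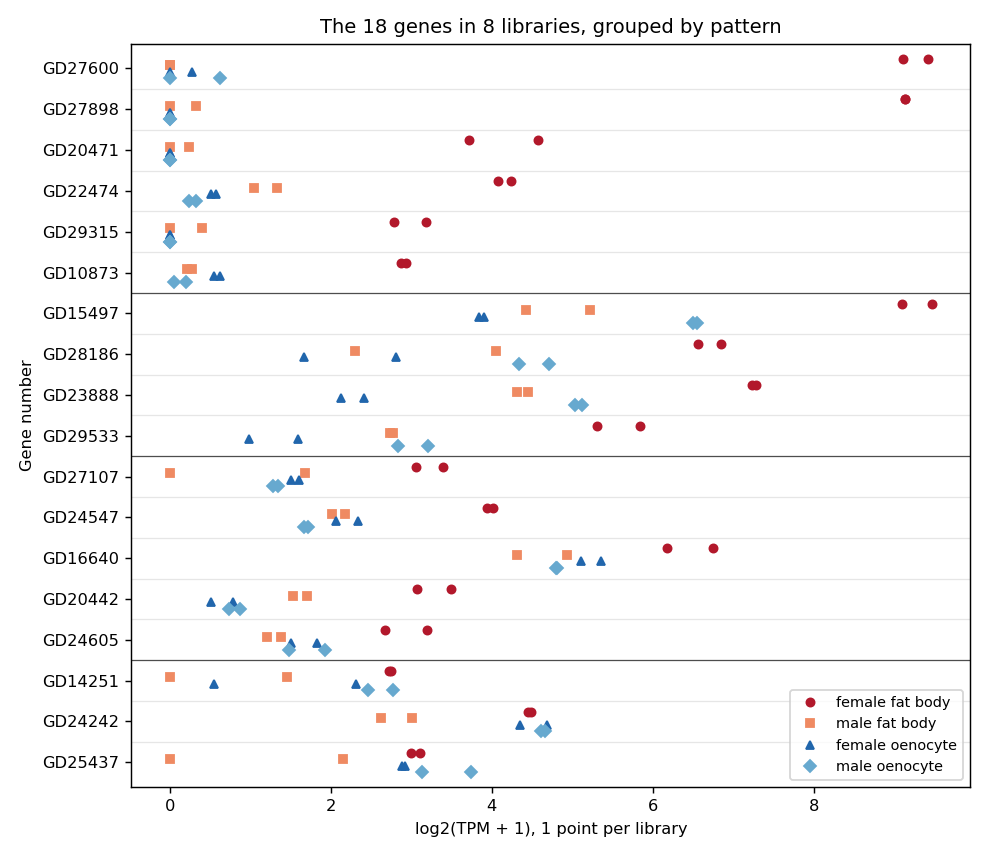
The level of each of the 18 genes as log2(TPM + 1) on the horizontal axis, with 1 point per library and colours and symbols for the 4 groups. From top to bottom the blocks hold 6 genes with means under 1.5 TPM in the other 3 groups, 4 genes higher in male than female oenocytes, 5 genes between these patterns, and 3 genes with oenocytes near the level of female fat body. In each row both red points lie to the right of both orange ones.

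A group of 6 genes had means under 1.5 TPM in each of the other 3 groups, and 2 of them were abundant in female fat body. GD27600, on the X, had 551 and 681 TPM in female fat body, 0 in both male fat body libraries, 0 and 0.21 TPM in female oenocytes and 0.54 and 0 TPM in male oenocytes. GD27898, also on the X, had 559 and 563 TPM in female fat body, 0 and 0.25 TPM in male fat body and 0 in all 4 oenocyte libraries. These were all-or-none patterns, with the libraries of female fat body far from the other 6.

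The estimated counts show how much evidence stood behind the low side. GD27600 had 3147 counts in female fat body against none in the male libraries, which puts it at least 1120-fold higher in females when 3 counts over the male group are taken as the limit. GD27898 had 4592 counts in female fat body against 2 in male fat body, a depth-scaled ratio of 2452 with an exact Poisson 95% interval of 679 to 20250. Against female oenocytes, where it had no count, GD27898 was at least 2578-fold higher in female fat body by the same limit. These limits and intervals cover counting error only.

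The other 4 genes of this pattern were much lower. GD22474 and GD10873 were detected in all the other groups, and GD20471 and GD29315 only in male fat body replicate 1 besides female fat body. GD22474 (2L) had 17.96 and 15.9 TPM in female fat body, 1.53 and 1.06 TPM in male fat body and 0.18 to 0.49 TPM in oenocytes. GD20471 (3R) had 12.1 and 22.9 TPM in female fat body, 0.18 and 0 TPM in male fat body, and 0 in all 4 oenocyte libraries. It was the least even of the 6 between female replicates. GD29315 (X) had 8.07 and 5.93 TPM in female fat body, 0.32 and 0 TPM in male fat body and 0 in oenocytes. GD10873 (2R) had 6.67 and 6.34 TPM in female fat body, 0.16 and 0.21 TPM in male fat body, 0.54 and 0.47 TPM in female oenocytes and 0.15 and 0.04 TPM in male oenocytes.

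A group of 4 genes had opposite sex differences in the tissues: female above male in fat body, and male above female in oenocytes by at least 3-fold on TPM + 1. The rule set only an upper limit on the female to male ratio in oenocytes, so it allowed this but did not require it. Among the 4702 genes at 5 TPM or more in female fat body, 0.255% (12 genes) were at least 3-fold higher in male than in female oenocytes, and these 4 are among them. Over all genes the share was 0.268%. The rule used the oenocyte ratio, so the count is a description. Over all 18 genes, both male oenocyte libraries lay above both female ones in TPM for 6 (33% of the 4702 genes), both female above both male for 5 (36.2%), and they overlapped for 7. Such a split is near the background.

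GD15497 (X) had 547 and 710 TPM in female fat body and 20.6 and 36.2 TPM in male fat body. In oenocytes it had 14.0 and 13.3 TPM in females against 89.4 and 92.6 TPM in males, a male to female ratio of 6.28 on TPM + 1. Female fat body was thus the highest of the 4 groups and female oenocytes the lowest, with the male libraries in between. GD23888 (2L) had the same order, with 155 and 149 TPM in female fat body, 20.8 and 19.0 TPM in male fat body, 33.7 and 31.9 TPM in male oenocytes and 4.35 and 3.37 TPM in female oenocytes. Its male to female ratio in oenocytes was 6.95.

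GD28186 (2R) had 93.4 and 114 TPM in female fat body, 3.93 and 15.6 TPM in male fat body, 19.2 and 25.3 TPM in male oenocytes and 6.02 and 2.17 TPM in female oenocytes. GD29533 (3L) had 38.7 and 56.6 TPM in female fat body, 5.64 and 5.84 TPM in male fat body, 6.12 and 8.21 TPM in male oenocytes and 0.98 and 2.01 TPM in female oenocytes. In TPM the libraries of female and male oenocytes did not overlap for any of the 4 genes. For GD29533 this rested on 0 and 3 estimated counts in females against 3 and 5 in males. These few counts separated the sexes only when scaled for depth. The 2 male oenocyte libraries were counted as 1 sample in the tests, because earlier results of these data put their estimated counts near sampling noise. Here those counts differed by more than sampling noise, though by less than in the other replicate pairs.

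**Figure D2:**
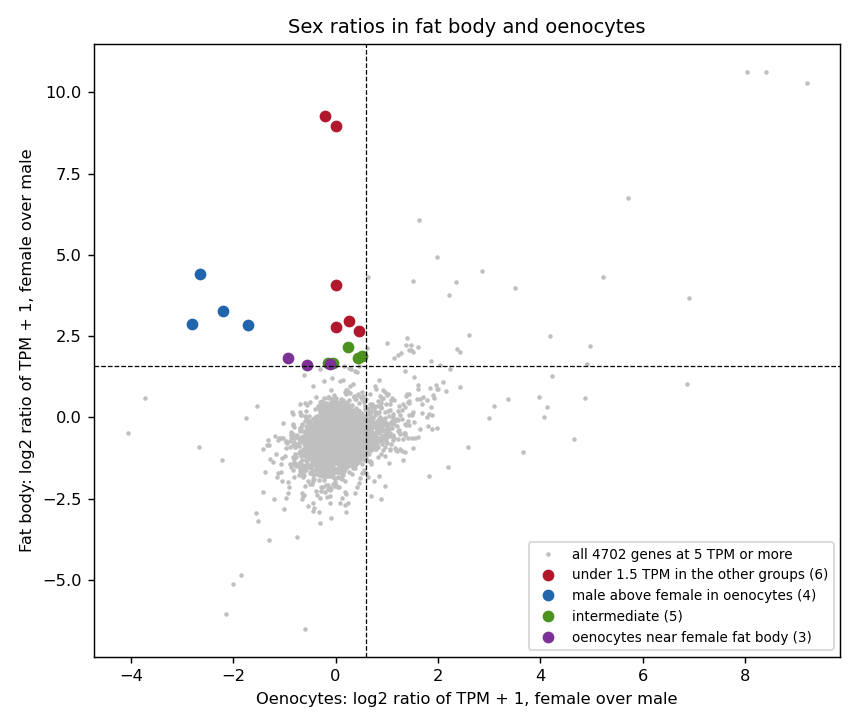
The log2 ratio of female over male TPM + 1 in oenocytes (horizontal) and in fat body (vertical) for the 4702 genes at 5 TPM or more in female fat body, in grey, with the 18 genes coloured by pattern. Dashed lines mark the limits of 3-fold in fat body and 1.5-fold in oenocytes. The 4 blue points lie far to the left, at male to female ratios of 3.27 to 6.95 in oenocytes.

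A group of 5 genes fitted none of the other patterns and varied in level. GD16640 (X) had 106 and 71.4 TPM in female fat body, 29.7 and 18.9 TPM in male fat body, 39.9 and 33.4 TPM in female oenocytes and 27.0 and 26.9 TPM in male oenocytes. Female fat body was highest, with both of its libraries above the other 6. GD24547 (X) had 15.2 and 14.3 TPM in female fat body against 3.06 and 3.51 TPM in male fat body, with 2.19 to 4.08 TPM in oenocytes. GD27107 (3L), GD20442 (3R) and GD24605 (X) had means of 8.44, 8.84 and 6.77 TPM in female fat body and of 1.11, 2.07 and 1.46 TPM in male fat body. Both sexes had 0.43 to 2.81 TPM of these 3 genes in oenocytes.

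A group of 3 genes was low mainly in male fat body, with oenocytes of at least 1 sex near the level of female fat body. GD24242 (2L) had 21.5 and 20.9 TPM in female fat body, 24.7 and 19.5 TPM in female oenocytes, 24.3 and 23.5 TPM in male oenocytes and only 5.16 and 7.06 TPM in male fat body. The other 6 libraries overlapped and lay between 19.5 and 24.7 TPM. GD25437 (2R) had 7.65 and 6.97 TPM in female fat body, 3.45 and 0 TPM in male fat body, 6.41 and 6.58 TPM in female oenocytes and 12.4 and 7.79 TPM in male oenocytes. GD14251 (3L) had 5.70 and 5.62 TPM in female fat body, 0 and 1.75 TPM in male fat body, 0.46 and 3.98 TPM in female oenocytes and 4.5 and 5.82 TPM in male oenocytes.

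The genes nearest the 3-fold limit were GD25437 (3.05), GD24242 (3.13) and GD24605 (3.16) inside it. The 3 genes just outside had ratios of 2.86, 2.96 and 2.97. The deposited TPM were not scaled between libraries beyond their fixed sum. The median of 7852 genes was at -0.61 on the log2(TPM + 1) scale for female minus male fat body. With TPM scaled by TMM factors (trimmed mean of M values, a scaling between libraries), 34 genes met the rule, and all 18 were among them. GD24605 then had a ratio of 4.47 and GD27600 of 812.

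The depth behind the low genes was small, and a second count of the same libraries showed which of the 18 rested on few reads. The submitters also counted reads per gene from an alignment to the genome. By those aligned reads, not scaled for depth, both female fat body libraries lay above both male ones for 14 of the 18 genes. This held for 11.9% of the 4702 genes at 5 TPM or more. Of the 18, 6 had no read in either male fat body library. They include GD29533, with no read in females either, and GD20471, with 1. The share over all genes was not counted, so nothing is read from the 6. The aligned reads come from the same RNA libraries and give the same contrast as the rule, so they are no independent check.

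GD27600 had 60 and 112 aligned reads in female fat body and none in any other library. GD27898 had 273 and 437 in female fat body and likewise none elsewhere. GD15497 had 112 and 204 aligned reads in female fat body and 2 and 3 in male fat body, with 5 and 2 in female and 17 and 21 in male oenocytes. GD23888 had 147 and 191, 14 and 27, 3 and 1, and 22 and 28 aligned reads in the same order of groups. The opposite sex difference in oenocytes was thus present in both kinds of count for GD15497 and GD23888.

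It could not be seen in aligned reads for the other 2 genes of that pattern. GD28186 had 3 and 4 aligned reads in female fat body and none in the other 6 libraries, although kallisto gave it 124 and 261 counts in female fat body and 23 and 61 in male oenocytes. GD29533 had no aligned read in any library, against 30 and 47 kallisto counts in female fat body. GD20471 had 1 aligned read over all 8 libraries, in female fat body replicate 2. The cause of these gaps between the kallisto counts and the aligned reads was not tested.

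The 4 genes without a separation in aligned reads were GD20471, GD29533, GD14251 and GD25437. GD25437 had 8 and 4 aligned reads in female and 5 and 4 in male fat body. In the kallisto tables per library it had 0 and 4 counts in female fat body, with none in the male libraries, so neither count showed the sex difference of its deposited gene TPM. GD14251 rested on 7 and 10 kallisto counts in female fat body against 0 and 6 in the male libraries, with at most 1 aligned read in each. For GD14251 a sex difference in fat body was not detectable at this depth. For GD25437 the deposited gene TPM and the counts of its matched transcript disagreed, with 7.65 TPM and 0 counts in female fat body replicate 1. The cause was not tested, and no sex difference of GD25437 is read from either. GD16640, by contrast, had 1028 and 922 aligned reads in female and 186 and 196 in male fat body.

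**Figure D3:**
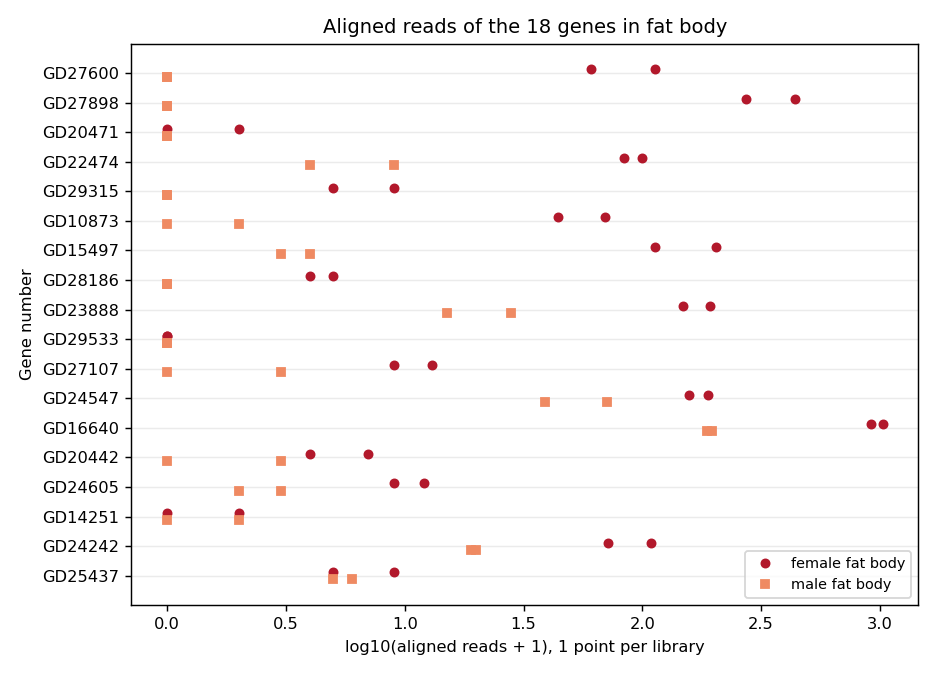
Aligned reads of the 18 genes in fat body as log10(reads + 1), with 1 point per library, red circles for females and orange squares for males, in the order of the plot of TPM by library. GD16640 lies farthest right, with 922 and 1028 reads in females, while GD29533 lies at 0 in all 4 libraries.

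The tissues were also compared within females. The rule bears on both sides of this contrast, through the floor and fold in female fat body and the limit on female oenocytes, and genes high in female fat body passed the filter on low counts more easily. The counts below are therefore descriptions that the choice of genes favoured. Of the 18 genes, 11 matched a single transcript and 10 of those passed the filter on low counts. Female fat body was higher than female oenocytes for 6 of the 10 and lower for none (edgeR, quasi-likelihood, with p adjusted by Benjamini-Hochberg over 14279 transcripts), where 13.1% of all transcripts tested were higher in female fat body. Nothing is read from this count.

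GD23888 was higher in female fat body by 5.52 ± 0.191 on the log2 scale (SE) and GD15497 by 5.72 ± 0.446. GD20442 was higher by 4.20 ± 0.592, a call lost without female fat body replicate 2, and GD28186 by 4.80 ± 0.995, a call lost without any 1 of the 4 female libraries. GD27600 and GD27898 were the other 2 called, both with counts of at most 1 in female oenocytes. GD20442 had 80 and 175 kallisto counts in female fat body but only 3 and 6 aligned reads, against 3 and 0 in female oenocytes. The cause of this gap was not tested. In deposited TPM, 13 of the 18 genes were at least 3-fold higher in female fat body than in female oenocytes on TPM + 1, as were 12.7% of the genes at 5 TPM or more. GD24242 had a ratio of 0.963, the lowest of the 18, and its libraries in the 2 tissues overlapped in females.

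For completeness the sex contrasts themselves were also fitted with edgeR on scaled counts. Of the 10 genes, 4 were past the threshold for female above male fat body (2.84% of all transcripts tested) and 0 for the opposite (3.28%). The 4 were GD27600, GD27898, GD15497 and GD23888. The interaction of sex and tissue was past it for GD15497 and GD23888, where 0.798% of transcripts had a larger female minus male difference in fat body than in oenocytes and 1.79% a smaller one. With aligned reads, 8 of 12 genes tested were past the threshold for sex (0.566% of all genes tested) and 2 of 12 for the interaction (0.0674%), and in the tissue comparison 8 of 12 were (15.4%). The rule used both contrasts, and nothing is read from these counts. Without female fat body replicate 2 only 1 of the 4 was past the threshold, and at most 1 of the 2 interactions was past it without any 1 of the female or fat body libraries.

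Allele counts were not used by the rule, and the allelic share is a measure apart from the level. Which genes had enough allele reads for a test did depend on the level in female fat body, which the rule used. Reads that cover a difference between the species were counted as reference or alternative. The files do not name the species of these alleles, but over 266 to 489 genes per library the reference share correlated with the kallisto share of the D. simulans copy (Pearson's r 0.681 to 0.861 across genes, which are not independent replicates). Alternative is therefore read as D. sechellia. In female fat body the alternative allele took 55.4% ± 2.0 (SD, n = 2) of the reads on the X and 62.7% ± 0.263 on the autosomes.

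Of the 18 genes, 9 had at least 20 allele-specific reads in female fat body, and 5 of these are on the X. The rule chose genes high in female fat body, which favoured reaching this number. GD27600, GD27898, GD22474 and GD10873 had at most 7 such reads in each of the other groups. One of the 9, GD24547, had unequal alleles by edgeR's quasi-likelihood test, towards the alternative allele, and none towards the reference. Over all 4374 genes tested, 23.0% were called towards the alternative and 2.13% towards the reference allele. On the X the shares called were 16.1% and 2.76%, and on the autosomes 24.6% and 1.98%. The log2 of alternative over reference ranged from -2.08 to 2.54 over the 9 genes, in both directions.

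GD24547 (X) had 96.4% alternative reads (95% Wilson interval 82.3% to 99.4%, 28 reads) in female fat body replicate 1 and 75.0% (59.8% to 85.8%, 40 reads) in replicate 2. The Wilson intervals here and below cover counting error only, and reads of 1 library need not be independent molecules. Its log2 ratio was 2.54 ± 0.792 (SE; edgeR adjusted p 0.0202). The call was lost without replicate 1 (1.57, edgeR adjusted p 0.424), without replicate 2 (4.62, edgeR adjusted p 0.0602) and when each library was centred on its median (1.85, edgeR adjusted p 0.127). Over its 14 alternatives the adjusted p ranged from 0.0114 to 0.424. In female oenocytes it had 93.5% alternative reads (31 reads over both libraries). In male fat body, where only 1 of the alleles can be present on the lone X, 15 of its 30 reads were alternative, 1 of 7 in replicate 1 and 14 of 23 in replicate 2, against 23.3% ± 1.78 (SD, n = 2) for the whole X. What such reads add to its female shares was not tested.

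The X-linked genes GD27600 and GD15497 had mostly reference reads in female fat body. GD27600 had 17.4% alternative reads (6.98% to 37.1%, 23 reads) in replicate 1 and 20% (10.9% to 33.8%, 45 reads) in replicate 2. GD15497 had 27.0% (19.3% to 36.4%, 100 reads) and 32.2% (25.7% to 39.4%, 174 reads). Neither gene passed the edgeR threshold, with log2 ratios of -2.08 ± 0.816 (edgeR adjusted p 0.0634) and -1.24 ± 0.475 (edgeR adjusted p 0.0572). Over the alternatives the adjusted p ranged from 0.00185 to 0.450 for GD27600, called in 8 of 15, and from 0.00503 to 0.480 for GD15497, called in 5 of 14.

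The kallisto species copies gave GD27600 29.7% and 26.6% D. sechellia counts in the 2 female fat body libraries, also below 50%. For GD15497 both copies had the same counts, so they hold no allelic information. By alignment, 274 of its 316 reads in female fat body were counted as allele-specific. The cause of this gap was not tested, and the allelic shares of GD15497 rest on the alignment alone. All 33 allele reads of GD15497 in male oenocytes were reference, which allows up to 9.09% alternative reads. Only 1 allele can be present on the lone X of males. The whole X had 17.8% alternative reads in male oenocytes and the median X-linked gene 13.8%. Nothing about the female shares is read from these male reads.

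The third abundant X-linked gene, GD27898, lay on the other side of equal shares, with 67.1% alternative reads (61.1% to 72.5%, 258 reads) and 60.4% (55.6% to 65.1%, 407 reads) in the 2 female fat body libraries. The whole X lay on that side too, at 55.4%, as did the median X-linked gene, at 58.8%. The log2 ratio of GD27898, 0.81 ± 0.338, did not pass the threshold (edgeR adjusted p 0.0818, 0.0178 to 0.876 over its alternatives). It was 0.115 when each library was centred on its median. The kallisto copies gave GD27898 63.3% and 60.1% D. sechellia counts. Their log2 ratio of 0.686 was below the median of 1.23 over all genes tested with these copies. GD27600 and GD27898 thus had their larger share of reads from different alleles, and the difference between them was not tested.

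GD16640 (X) had 53.8% (48.8% to 58.8%, 377 reads) and 60.7% (55.5% to 65.7%, 351 reads) alternative reads, close to the whole X. In male fat body it had 13.1% (8.81% to 19.0%, 168 reads) and in male oenocytes 14.4% (9.85% to 20.5%, 167 reads). The reads of the whole X gave 23.3% and 17.8% in these groups, and the median X-linked gene 18.9% and 13.8%. On 2L, GD23888 had 38.5% (29.4% to 48.5%, 96 reads) and 45.2% (36.8% to 53.9%, 126 reads), below the 62.7% of the autosomes in both libraries. Its log2 ratio against equal alleles was -0.47 ± 0.453 (edgeR adjusted p 0.481). The kallisto copies gave it 37.7% and 38.3% D. sechellia counts and a call towards D. simulans (-0.71 ± 0.211, edgeR adjusted p 0.0189), its only call in 15 alternatives. GD22474, GD24242 and GD10873 had 68.9%, 73.6% and 64.9% alternative reads over both libraries, from 106, 53 and 37 reads, and none passed the threshold.

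**Figure D4:**
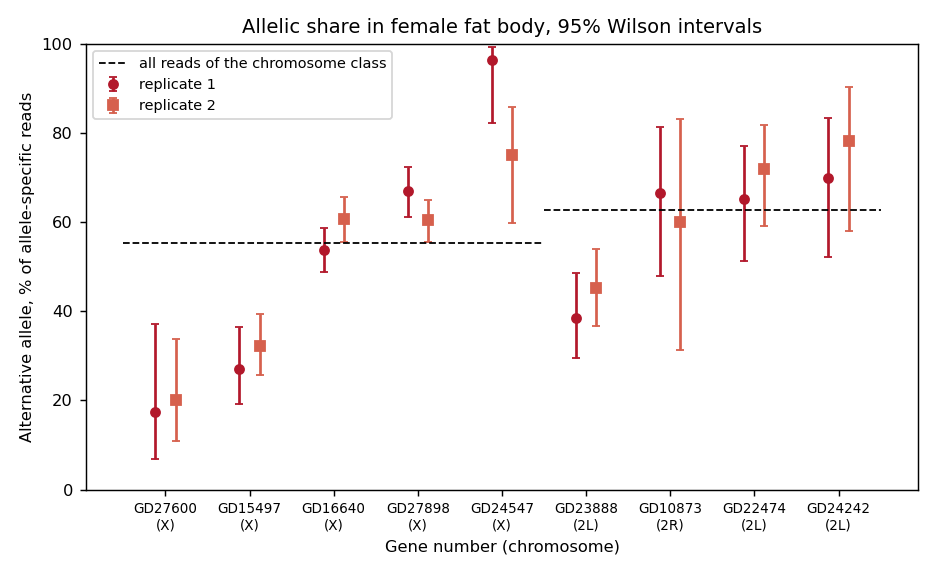
Alternative allele reads as a percentage of allele-specific reads in the 2 female fat body libraries for the 9 genes with at least 20 such reads, with 95% Wilson intervals. Dashed lines give the mean over libraries of the share over all reads of the X (55.4%) and of the autosomes (62.7%). GD27600, GD15497 and GD23888 lie below their line in both libraries.

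Whether the allelic ratio differed between female fat body and female oenocytes could be tested for 3 of the 18 genes, GD16640, GD24242 and GD24547. None was called, at log2 differences of -0.62 ± 0.391, -0.34 ± 0.866 and -1.16 ± 1.39 (SE; edgeR adjusted p 0.993 to 0.996). Of the 3991 genes tested, 0.0501% were higher and 0.1% lower in female fat body. The comparison of female and male fat body off the X covered 1 gene, GD23888, with 42.3% alternative reads in females and 40.9% (23.3% to 61.3%, 22 reads) in males over both libraries. Its log2 difference was -0.01 (edgeR adjusted p 1), with 0.0299% of 3346 genes called higher and 0.0598% called lower in females. At 22 reads in males, a difference of moderate size was not detectable.

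Chromosome and transcript length were not used by the rule. On the X lay 7 of the 18 genes (38.9%), against 17.2% of the 4702 genes at 5 TPM or more in female fat body. Of the 34 genes that were also at least 1.5-fold higher in female oenocytes, 13 (38.2%) are on the X. Of the other 11, 3 each lie on 2L, 2R and 3L and 2 on 3R, and the files give no position beyond the chromosome.

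Length was known for part of the genes. The 11 genes with a single matched transcript had lengths of 245 to 1167 nucleotides with a median of 430, and 8 of them (72.7%) were under 700 nucleotides. Of 3178 matched genes at 5 TPM or more in female fat body, 13.1% were under 700 nucleotides, and their median was 1489. GD29533, at 245 nucleotides, was the shortest, and the 4 genes with male above female oenocytes had 402, 356, 1167 and 245 nucleotides. A short transcript reaches a given TPM from fewer counts, and the part of this in the choice of the low genes was not tested. The chromosome and length counts describe a list chosen on levels.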

How the data were processed

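The authors' deposited tables were used as given. TPM per gene and transcript and estimated counts per transcript and species copy come from kallisto 0.44.0, and read counts per gene and allele class from an alignment, with STAR 2.5.1b named, per the submitters' processing notes. The index, genome build, variant filter and strand treatment are not given in the sources used here. The authors' log2 allele values in the deposited tables were not used.

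The rule was applied to the deposited gene TPM. Genes were matched to a transcript where all 8 TPM values were equal to 2 decimals and unique, which held for 7776 genes. Estimated counts of both copies were summed, rounded and fitted with edgeR 4.0.16 (R 4.3.3) with TMM, filterByExpr and 1 term per group. The 2 male oenocyte libraries were summed and counted as 1 sample, which left 7 samples and 3 residual degrees of freedom. The lone sample is assumed to vary like the other groups. Their estimated counts had a median chi-square of 0.920 per transcript (mean 7.54), against 2.47 to 5.35 in the other pairs and 0.455 for sampling noise. The male pair thus differed by more than sampling noise, and the fit with all 8 libraries apart is an alternative. Allele counts were fitted with edgeR with a term per sample and an allele term per group, over genes with at least 20 allele reads per group compared. Each SE is the size of the log2 value divided by the root of the F statistic. DESeq2 1.42.0 and limma 3.58.1 served as alternatives, beside other filters and scalings, other limits of the rule, aligned reads, kallisto copies and leaving out each library. Both edgeR fits were also run on simulated data, with 1 fixed spread for all transcripts and only counting error for alleles. Those settings differ from the data, so nothing is read from that run.

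The 18 genes and the lists were chosen with earlier results of these data known. The named genes were to be those highest in level or ratio, called for alleles, in a fixed list or next to the limit, with at most 2 unnamed genes per direction. All 18 are printed, because they are the subject and none has a name. Only the allele tests use values that the rule did not, and the level in female fat body favoured the genes open to them.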

Additional observations from a re-analysis of the deposited data

Results flagged for a closer look

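For 6 of the 18 genes the deposited TPM lay in opposite orders in the 2 tissues, with both female libraries above both male ones in fat body and both male above both female ones in oenocytes. In oenocytes 5 others had both female libraries above and 7 overlapped, and 33% of the 4702 genes at 5 TPM or more in female fat body had both male oenocyte libraries above. For GD15497 and GD23888 the difference between tissues was itself past the threshold (female minus male in fat body less the same in oenocytes, log2 7.51 and 6.55, edgeR adjusted p 0.0241 and 0.00708). The rule used both sex contrasts, so these values describe chosen genes. The call was lost in 6 of 16 alternatives for GD15497 and in 3 of 16 for GD23888.

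For GD28186, GD29533, GD14251 and GD25437 the male to female ratio in oenocytes was 4.57, 3.27, 1.91 and 1.48 on TPM + 1, and the difference between tissues was not past the threshold or, for GD25437, could not be tested after the filter on low counts. GD14251 had at most 12 kallisto counts per library, and the transcript matched to GD25437 at most 4.9. For neither gene did those counts separate the sexes in oenocytes. GD14251 had 1 and 12 in females against 3 and 10 in males, and GD25437 had 0 and 0 against 4.9 and 0. GD29533 also rested on few counts, at 0 and 3 against 3 and 5, which separated the sexes only when scaled for depth. The deposited TPM of GD25437 did not match its counts, with 6.41 and 6.58 TPM in female oenocytes at 0 counts. GD29533 likewise had 0.98 TPM at 0 counts in female oenocyte replicate 1. The cause of these mismatches was not tested. The 2 male oenocyte libraries were counted as 1 sample in the fits, by choice.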

How the results depend on the processing

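The number of genes that met the rule was 34 with TMM-scaled TPM, 31 at a 2-fold limit, 11 at a 4-fold limit, 11 at a floor of 10 TPM and 16 to 22 with 1 library left out. Only 10 of the 18 met the rule in all 8 runs with 1 library left out. GD16640, GD24605 and GD25437 met it in 6 of the 8. Of the 22 genes found without male fat body replicate 1, 15 were among the 18. In the fat body sex contrast, 4 genes were called by edgeR, 8 by DESeq2, 8 from aligned reads (of 12 tested), 18 and 16 by limma on log2(TPM + 1) and log2(TPM + 0.1) (of 18), and 1 to 4 with 1 library left out. Interactions numbered 2 by edgeR, 7 by DESeq2, 16 and 15 by limma and 0 to 2 with 1 library left out. The tissue difference gave 6 calls, 15 and 14 by limma and 4 to 6 with 1 library left out. Unequal alleles in female fat body were called for 1 gene (alternative), for 2 at 50 reads or more (1 alternative, 1 reference), 2 with centred libraries (both reference), 3 from kallisto copies and 3 with all 8 libraries apart (each 1 alternative, 2 reference) and 0 to 4 with 1 library left out (at most 2 in each direction). Both comparisons of allelic ratios stayed at 0 calls in the alternatives that gave a value. At an unadjusted p under 0.05 edgeR also called 0 of the 3 genes between tissues, and DESeq2 called 0. No gene was left for the comparison of sexes at 50 reads or without either male fat body library.

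Over all transcripts the fat body sex contrast had 406 calls up and 469 down. These became 441 and 334 without the top 10 transcripts and 283 and 4996 by limma on unscaled log2(TPM + 1). DESeq2 called 1161 of 12618 transcripts for female above male fat body and 559 of 12341 for the interaction. For female fat body above female oenocytes it called 2857 of 13448, with 8 of the 18 genes among them. In the same order limma called 283, 147 and 1691 of 7852 genes on log2(TPM + 1). On log2(TPM + 0.1) it called 271, 130 and 1702. Nothing is read from the counts among the 18. Calls of unequal alleles over all 4374 genes were 1007 alternative and 93 reference, and 326 and 304 after centring. They were 924 and 87 of 2801 genes at 50 reads or more and 1784 and 83 of 3089 from kallisto copies. With all 8 libraries apart they were 1172 and 113 of 4374. Centring turned the log2 ratio of GD16640 to -0.27. Without 1 library the tissue difference in allelic ratio ranged from -0.94 to 0.31 for GD24242 (0.00590 without female fat body replicate 1) and from -2.13 to 0.92 for GD24547. For GD23888 the sex difference ranged from -0.24 to 0.16, and was 0.000240 with all 8 libraries apart. The cause of these changes was not tested.

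Replicate numbers did not pair the samples (correlations of -0.00873 to 0.0541 between groups). The replicate block gave 6 sex, 2 interaction and 6 tissue calls, 4 genes with unequal alleles (3 alternative, 1 reference), and 0.0235 for the sex difference in allelic ratio of GD23888. Of all 12986 transcripts it called 546, 267 and 2042 in the same direction, and of 4374 genes 1253 alternative and 124 reference.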
